A study of Mus musculus with 9 samples.

Results

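Blimp-1, Tim-3 and interleukin-10 are proteins tied to the dysfunctional state of T cells, and their transcripts Prdm1, Havcr2 and Il10 are described here across CD8 T cells under 2 kinds of tolerance and at rest. The members were the probe sets whose RefSeq accession maps to these 3 mouse genes, which gave 3 of the 909 genes named on the array, each with 1 of its 1246 probe sets (NM_007548.2_psr1_at for Prdm1, NM_134250.2_psr1_at for Havcr2 and NM_010548.1_psr1_at for Il10). The 9 samples were purified CD8 T cells with a transgenic T cell receptor from female mice of the B10D2 strain, in 3 groups of 3 arrays. In the deletion group the cells had been stimulated in the animal by a weak signal from their cognate antigen, in the anergy group by a strong one, and naive cells were the control. All 3 groups are labelled as transgenic cells. The labels used here do not name the receptor, the antigen, the age of the animals or the time after antigen. They also do not say that the numbered replicates came from separate animals. A p-value here reflects the spread of arrays within groups, as 1 estimate shared by the 3 groups and moderated over all probe sets. Part or all of that spread may be technical.

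Blimp-1 is a zinc finger repressor of transcription that drives terminal differentiation of lymphocytes, and in CD8 T cells it is induced during strong or lasting stimulation. Tim-3 is an inhibitory receptor of the cell surface that is known as a mark of exhausted T cells, with galectin-9 and Ceacam1 among its reported ligands. Interleukin-10 is a secreted cytokine that dampens immune responses and signals through a receptor made of the Il10ra and Il10rb chains, and Blimp-1 is known to promote its expression in T cells.

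Values are RMA expression values on the log2 scale, so that a difference of 1 is a 2-fold change. Across probe sets each array correlated at 0.9948 or more with the others of its group. Anergy replicate 3 had the widest spread around its group means, with a residual standard deviation (SD) of 0.166 against 0.0943 to 0.128 on the other 8 arrays. Of 9 genes that mark CD8 T cells, only the adhesion receptor gene Cd2 was matched to a probe set, so the labelled cell type could not be checked on Cd8a, Cd8b1 or the CD3 chains. Cd2 itself differed from naive cells by -1.57 ± 0.14 in deletion and -2.18 ± 0.14 in anergy (SE, log2; called in all 18 settings), and it was higher in deletion than in anergy by 0.61 ± 0.14 (adjusted p = 0.039 in limma), a call made in 8 of 18 settings and lost without deletion replicate 2 or any 1 of the anergy or naive arrays. It was thus lowest in the group where the members were highest, and its part in the results was not tested. In these bulk samples more cells that express a gene and more RNA per cell cannot be told apart.

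Transcripts of all 3 genes were at their highest in anergy cells, and the values of deletion arrays overlapped those of naive arrays. Against naive cells, Prdm1, Havcr2 and Il10 rose in anergy. Prdm1 and Havcr2 were lower in deletion than in anergy, and the same difference of Il10 did not pass the threshold of 0.05 on the adjusted p. None of the 3 passed between deletion and naive cells. On all 3 probe sets each of the 3 anergy arrays was above each of the 6 other arrays, an order that 43 of the 1246 probe sets (3.45%) showed.

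Prdm1, on chromosome 10 of the mouse genome (chr10:44437174-44528558 in GRCm38.p6), had log2 values of 4.12, 4.07 and 4.30 in deletion replicates 1 to 3, 4.68, 5.19 and 5.02 in anergy replicates 1 to 3, and 4.30, 4.18 and 4.24 in naive replicates 1 to 3. Anergy replicate 2 was the highest array and anergy replicate 1 the lowest of its group, still 0.38 above the highest array outside it. The deletion and naive arrays overlapped. The means were 4.16 ± 0.12 in deletion, 4.96 ± 0.26 in anergy and 4.24 ± 0.06 in naive cells (SD, n = 3 arrays each).

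Havcr2, on chromosome 11 (chr11:46454931-46481255), had log2 values of 3.82, 3.78 and 3.96 in deletion replicates 1 to 3, 4.35, 4.77 and 4.73 in anergy replicates 1 to 3, and 3.81, 3.59 and 3.86 in naive replicates 1 to 3. As for Prdm1, anergy replicate 1 was the lowest anergy array, here 0.39 above the highest array outside its group, and within the deletion group replicate 3 was the highest and replicate 2 the lowest on both probe sets. The means were 3.85 ± 0.09 in deletion, 4.62 ± 0.23 in anergy and 3.75 ± 0.14 in naive cells (SD, n = 3 each).

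Il10, on chromosome 1 (chr1:131019845-131024970), had log2 values of 3.03, 2.66 and 2.91 in deletion replicates 1 to 3, 3.16, 3.12 and 3.31 in anergy replicates 1 to 3, and 2.79, 2.83 and 2.91 in naive replicates 1 to 3. The anergy group was again the highest, but the gap to the nearest other array, deletion replicate 1, was only 0.09. The means were 2.87 ± 0.19 in deletion, 3.20 ± 0.10 in anergy and 2.84 ± 0.06 in naive cells (SD, n = 3 each). The lowest value on any array of the study was 1.67, and between 14.6% and 25.3% of the probe sets of an array read lower than Il10. For Havcr2 this share was 33.7% to 55.1% and for Prdm1 42.4% to 60.8%. No detection call was used here, so a probe set was not called present or absent.

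**Figure D1:**
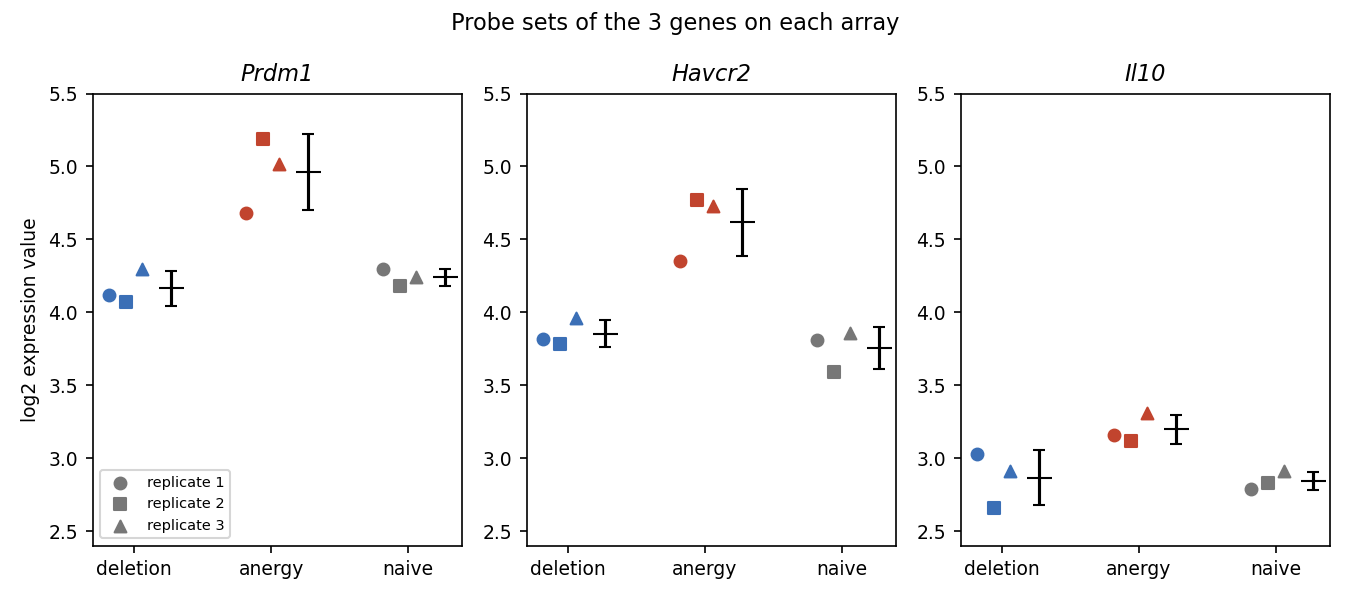
Log2 expression value (vertical axis) of the probe sets for Prdm1, Havcr2 and Il10 on each of the 9 arrays, by group (horizontal axis). Points are arrays, with a symbol for each replicate number, and the bar beside them is the mean with its SD (n = 3); the 3 anergy arrays lie above the 6 others in each panel, by 0.38, 0.39 and 0.09.

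The comparison of deletion with anergy asked how a weak and a strong antigen signal differ. The Prdm1 transcript was 1.74-fold lower in deletion cells (95% limits 1.45 to 2.10), a difference of -0.80 ± 0.12 on the log2 scale (standard error, SE; adjusted p = 0.00514 in limma). The Havcr2 transcript was 1.70-fold lower (1.41 to 2.04), a difference of -0.76 ± 0.12 (adjusted p = 0.00608). For Il10 the difference was -0.33 ± 0.10 (95% limits -0.55 to -0.11), with an unadjusted p of 0.00702 and an adjusted p of 0.106 in limma, and the groups did not overlap. Thus 2 of the 3 members were lower in deletion, where 1.28% of all 1246 probe sets were called lower and 3.37% were called in either direction. By the size of p, Prdm1 stood 16th, Havcr2 18th and Il10 82nd among the 1246. The arrays did not overlap for 3 of 3 members, and in this direction that held for 5.62% of all probe sets.

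Against naive cells, the control, anergy cells had 1.65-fold more Prdm1 transcript (95% limits 1.37 to 1.99; 0.72 ± 0.12 on the log2 scale, SE; adjusted p = 0.0011 in limma). Havcr2 was 1.82-fold higher (1.51 to 2.19; 0.86 ± 0.12; adjusted p = 0.000351), and Il10 was 1.28-fold higher (1.10 to 1.48; 0.35 ± 0.10; adjusted p = 0.0214). All 3 members were called higher, where 10.8% of all probe sets were called higher and 26.8% were called in either direction. The arrays of the groups did not overlap for any of the 3, as for 13.2% of all probe sets in this direction. The call of Il10 was lost with 1 array fewer in 3 fits, where the difference was 0.30 without anergy replicate 3 (adjusted p = 0.0691), 0.33 without naive replicate 1 (0.0762) and 0.35 without naive replicate 2 (0.0662). Those of Prdm1 and Havcr2 stayed past the threshold in each of 18 fits, with adjusted p of up to 0.00675 and 0.0027. A rule that also asks for a change of at least 1 on the log2 scale would call none of the 3 members in any comparison.

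Deletion cells, set against the same naive arrays, differed by -0.08 for Prdm1 (95% limits -0.35 to 0.19; adjusted p = 0.813 in limma). The difference was 0.10 for Havcr2 (-0.17 to 0.37; adjusted p = 0.722) and 0.02 for Il10 (-0.19 to 0.24; adjusted p = 0.940). The widest of these limits allows a change of up to 1.29-fold, and a p that misses the threshold does not show that the levels were equal. None of the 3 members was called, where 19% of all probe sets were called in either direction. The 3 comparisons share arrays, so they are not independent of each other.

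**Figure D2:**
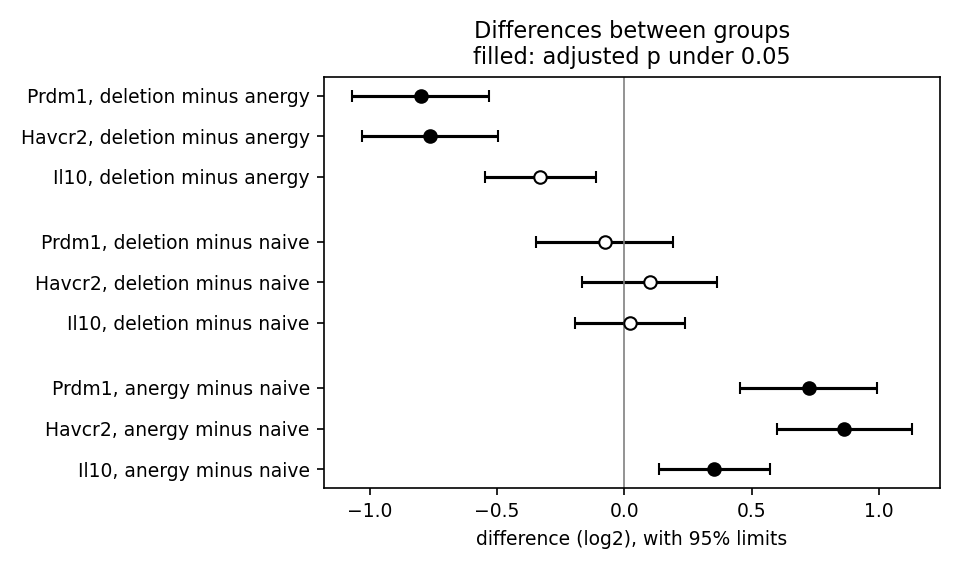
Difference between 2 groups on the log2 scale (horizontal axis), with its 95% limits, for Prdm1, Havcr2 and Il10 in each comparison (rows). Filled points had an adjusted p under 0.05: Prdm1 and Havcr2 at -0.80 and -0.76 in deletion minus anergy, and all 3 genes, at 0.72, 0.86 and 0.35, in anergy minus naive.

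Prdm1 and Havcr2 varied together across the 9 arrays more closely than either did with any other of the 909 named genes. Their Pearson correlation was 0.972, the highest of 908 for each. This is a description of 9 arrays that fall into an anergy set and the rest, and the value includes that split. Il10 stood 11th in likeness to Prdm1 (r = 0.798) and 10th in likeness to Havcr2 (r = 0.834). After the members themselves, the genes most like Prdm1 were Il2ra (0.935), which encodes the interleukin-2 receptor's alpha chain, the chemokine receptor gene Ccr6 (0.927), the glycolytic enzyme gene Aldoa (0.899) and the lectin receptor gene Klrc3 (0.871). Those most like Havcr2 were Il2ra (0.943), Aldoa (0.914), the growth factor gene Fgf11 (0.908) and Klrc3 (0.901). For Il10 they were Klrc3 (0.938), Pkd1l2 (0.912), Klrk1 (0.910), the activating receptor NKG2D, Spock1 (0.905), a proteoglycan gene, and Aldoa (0.891).

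Il2ra had log2 values of 3.79, 3.39 and 3.74 in deletion replicates 1 to 3, 4.65, 4.84 and 4.57 in anergy replicates 1 to 3, and 3.59, 3.49 and 3.50 in naive replicates 1 to 3. Klrc3 had log2 values of 2.87, 2.65 and 2.96 in deletion, 3.36, 3.31 and 3.48 in anergy, and 2.60, 2.82 and 2.85 in naive replicates 1 to 3. In both genes the anergy arrays stood clear of the others while deletion and naive arrays overlapped. These genes were picked for a pattern that sets anergy apart, so their differences are given as a description with no test. Deletion minus anergy was -1.05 for Il2ra, -1.07 for Ccr6, -0.48 for Aldoa, -0.56 for Klrc3, -0.50 for Klrk1, -0.29 for Pkd1l2, -0.13 for Spock1 and -0.12 for Fgf11 on the log2 scale.

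**Figure D3:**
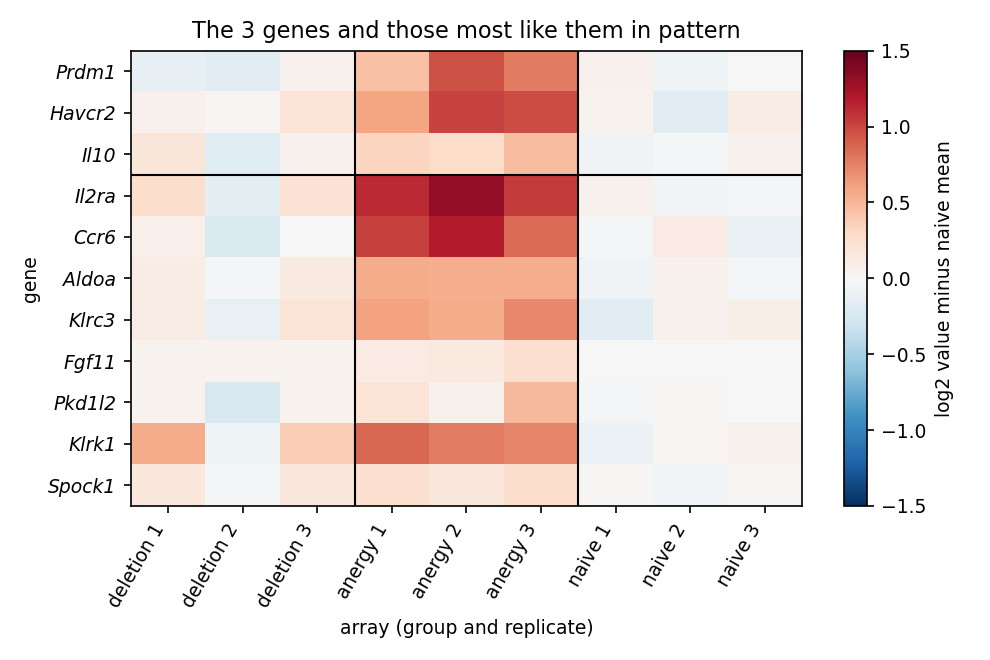
Log2 value minus the naive mean of each gene (colour) on the 9 arrays (columns, by group and replicate) for Prdm1, Havcr2 and Il10 (above the line) and the genes with the highest Pearson correlation to any of them (below it). The anergy columns lie above the naive mean in every row, and Il2ra and Ccr6 reach the largest differences. The rows of Pkd1l2, Spock1 and Fgf11 are pale, with mean differences of 0.25, 0.23 and 0.17.

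Because Prdm1 and Havcr2 moved together, the 250 bases before the start of each gene are shown, as RefSeq gives them for GRCm38.p6, with matches to a fixed set of motifs in capitals. The window of Prdm1 is chr10:44458749-44458998 on the minus strand and that of Havcr2 is chr11:46454681-46454930 on the plus strand, each written 5′ to 3′ in the direction of transcription.
Prdm1: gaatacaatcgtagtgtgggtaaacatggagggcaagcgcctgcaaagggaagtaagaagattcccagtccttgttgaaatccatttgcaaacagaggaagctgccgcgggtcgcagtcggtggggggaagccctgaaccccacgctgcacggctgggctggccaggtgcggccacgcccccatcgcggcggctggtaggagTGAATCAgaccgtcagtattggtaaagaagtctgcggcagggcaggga
Havcr2: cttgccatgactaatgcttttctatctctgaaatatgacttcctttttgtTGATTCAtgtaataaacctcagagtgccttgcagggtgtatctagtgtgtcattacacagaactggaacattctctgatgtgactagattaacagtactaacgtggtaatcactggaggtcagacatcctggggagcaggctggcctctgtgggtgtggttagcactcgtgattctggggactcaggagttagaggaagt
The motifs were searched on both strands. Each window held 1 match to TGANTCA, a loose form of the AP-1 site in which any base was allowed in the middle, at 48 to 42 bases before the start in Prdm1 and at 200 to 194 bases before it in Havcr2. Of 32851 promoter windows of this length in the table, 6.75% held such a match. Neither match has the C or G that the AP-1 consensus carries in the middle, and each is the reverse complement of the other. Neither window held AGNGAAAG, for Blimp-1 itself (7.3% of all windows), AGGTGTGA, for T-box factors (1.12%), GGAAA, for NFAT (55.6%), or TTCNNNGAA, for STAT factors (7.02%). A match is a run of letters and not a measured site, and its absence says only that these letters are not in this window. The window of Prdm1 precedes 1 annotated start and lies within the full span of the gene.

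Among cytokines and receptor chains known to act upstream of Blimp-1 or interleukin-10, 18 of 19 listed genes were measured. In deletion against anergy 3.37% of all probe sets were called. Of the 18 genes 3 were lower and 1 was higher there, with a median difference of 0.00 against -0.01 over all probe sets. The lower ones were Il2ra, Il12rb2 and Il21. Il12rb2, a chain of the interleukin-12 receptor, had log2 values of 3.22, 3.08 and 3.14 in deletion, 3.74, 3.79 and 3.98 in anergy, and 3.56, 3.55 and 3.60 in naive replicates 1 to 3, so that deletion was below naive here. Il21, a cytokine that induces Blimp-1, had 2.16, 2.17 and 2.01 in deletion, 2.68, 2.54 and 2.79 in anergy, and 2.19, 2.04 and 2.19 in naive replicates 1 to 3. The probe set of Il21 was among the dimmest, and its difference of -0.56 ± 0.08 (SE, log2; adjusted p = 0.00514 in limma) did not pass when low values were raised to the 10th percentile of their array (adjusted p = 0.185).

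The 1 gene of that list that was higher in deletion was Il27ra, the receptor of the cytokine interleukin-27, which induces interleukin-10 in T cells. It had log2 values of 9.42, 9.54 and 9.51 in deletion, 9.10, 9.01 and 8.95 in anergy, and 10.33, 10.43 and 10.46 in naive replicates 1 to 3, the reverse order of the members between deletion and anergy. With the replicate number as a block, Ifnar1, a chain of the type I interferon receptor, also passed as higher (0.56; adjusted p = 0.0383) and Il2rb, the beta chain of the interleukin-2 receptor, as lower (-0.30; adjusted p = 0.0344), which made the counts 2 higher and 4 lower. Ifnar1 passed in 5 of 18 settings and Il2rb in 3 of 18, among them quantile normalization (0.0157 and 0.0124) and array weights (0.0233 and 0.045). Il6st, also of this list, was higher in deletion by 0.57 (adjusted p = 0.0516 in limma). It passed with the dimmest probe sets left out (0.0357), in a trended robust fit (0.0356), with array weights (0.0263) and without anergy replicate 1 (0.0074). Against naive cells 2 of the 18 genes rose and 5 fell in deletion, where 19% of all probe sets were called. In anergy 4 rose and 6 fell, where 26.8% were called. Il2rb rose in both, by 1.78 ± 0.09 in deletion and 2.09 ± 0.09 in anergy. The receptor chains Il21r, Il4ra and Il2rg fell in both, in deletion by 0.73, 0.76 and 0.49 on the log2 scale and in anergy by 0.99, 0.63 and 0.60. The counts take the brightest probe set of each gene. A dimmer probe set of Il6ra differed from naive cells by -1.03 in deletion and -1.27 in anergy (adjusted p = 4.8e-06 and 7.32e-07 in limma). The remaining one of Il6ra did not pass. A dimmer probe set of Il15ra passed as lower in deletion than in naive cells (-0.31; adjusted p = 0.0455) and did not pass in anergy.

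Of 6 measured receptor chains of the interleukin-10 family none was called between deletion and anergy, where 3.37% of all probe sets were called. Against naive cells 1 rose in deletion, where 19% of all probe sets were called, and 1 fell in anergy, where 26.8% were called. Il10ra, the ligand-binding chain, had log2 values of 6.66, 6.99 and 6.79 in deletion, 6.53, 6.64 and 6.37 in anergy, and 6.54, 6.41 and 6.32 in naive replicates 1 to 3. It rose in deletion against naive cells by 0.39 ± 0.10 (SE, log2; adjusted p = 0.0234 in limma), with 0.09 ± 0.10 in anergy against naive, and its difference between deletion and anergy was 0.30 ± 0.10 (adjusted p = 0.169). Il10rb, the shared signalling chain, had 8.36, 8.44 and 8.38 in deletion, 8.32, 8.38 and 7.95 in anergy, and 8.49, 8.67 and 8.53 in naive replicates 1 to 3. It fell in anergy against naive by 0.35 on the log2 scale (adjusted p = 0.0381). Without anergy replicate 3, its lowest array and the one with the wide spread, it fell by 0.21 and still passed (0.0465). The call of Il10ra was lost after median centring (adjusted p = 0.0715) and without deletion replicate 2 (0.0896) or 3 (0.0562) or naive replicate 2 (0.0739) or 3 (0.0969). That of Il10rb was lost after median centring (0.0548), in a fit to only 2 groups (0.0905) and without any 1 of the deletion arrays (up to 0.0578) or the naive arrays (up to 0.138). The chains Il20ra, Il20rb, Il22ra1 and Il22ra2, which serve related cytokines, passed in no comparison and differed by -0.22 to 0.06 between deletion and anergy.

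Of the relatives of interleukin-10, Il19, Il20, Il22, Ifnl2 and Ifnl3 were measured, and none passed in any comparison. Their differences between deletion and anergy ran from -0.22 for Ifnl3 to 0.01 for Il19. Over all probe sets 3.37% were called between deletion and anergy, 19% in deletion against naive and 26.8% in anergy against naive. Of the suppressive cytokines and lectins, the galectin-1 gene Lgals1 rose against naive cells by 2.86 ± 0.14 in deletion and 3.13 ± 0.14 in anergy (SE, log2), and it differed by -0.27 between deletion and anergy (adjusted p = 0.399 in limma). Tgfb1, Tgfb2, Tgfb3, Il12a and Il27 passed in no comparison. After quantile normalization Tgfb1 passed as higher in anergy than in naive cells (adjusted p = 0.0435) and Tgfb3 as lower in deletion than in naive cells (0.0424). Il27 differed by -0.19 between deletion and anergy, and by -0.05 without anergy replicate 3.

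Of genes related to Tim-3, the receptors of the same family Havcr1, Timd2 and Timd4 and the ligand gene Lgals9 were measured, 4 of 6 listed. None passed in any comparison, with a median difference of -0.05 between deletion and anergy against -0.01 over all probe sets. The share of all probe sets called was 3.37% between deletion and anergy, and against naive cells 19% in deletion and 26.8% in anergy. Lgals9, galectin-9, had log2 values of 9.52, 9.49 and 9.42 in deletion, 9.94, 9.66 and 9.47 in anergy, and 9.40, 9.34 and 9.54 in naive replicates 1 to 3, so the groups overlapped. In anergy against naive cells it differed by 0.26 (adjusted p = 0.121), and it passed as higher after quantile normalization (0.0296), with array weights (0.0201) and without anergy replicate 3 (0.37; 0.0199). Havcr1, Timd2 and Timd4 differed by -0.03, -0.05 and -0.05 between deletion and anergy. Of 3 listed signalling partners of Tim-3 none was matched to a probe set.

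Of 21 listed inhibitory receptors and related molecules 5 were measured, all of them lectin receptors. Klrc1, the inhibitory receptor NKG2A, was lower in deletion than in anergy by 1.87 ± 0.18 on the log2 scale (adjusted p = 0.000368 in limma), and it was also higher in deletion than in naive cells (6.75 ± 0.36 against 3.74 ± 0.30, SD, n = 3 each). Klrd1, the partner chain of NKG2A, fell by 1.04 in deletion and by 0.92 in anergy against naive cells. Klrg1, Klra3 and Klra7 passed in no comparison. Of 21 listed transcription factors and enzymes of dysfunction and anergy, only the ubiquitin ligase gene Itch was measured. In anergy against naive cells it differed by -0.33 (adjusted p = 0.0511), and it passed as lower with the replicate block (0.0048), with the dimmest probe sets left out (0.0408), without anergy replicate 2 (0.0343) and without naive replicate 3 (0.043).

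**Figure D4:**
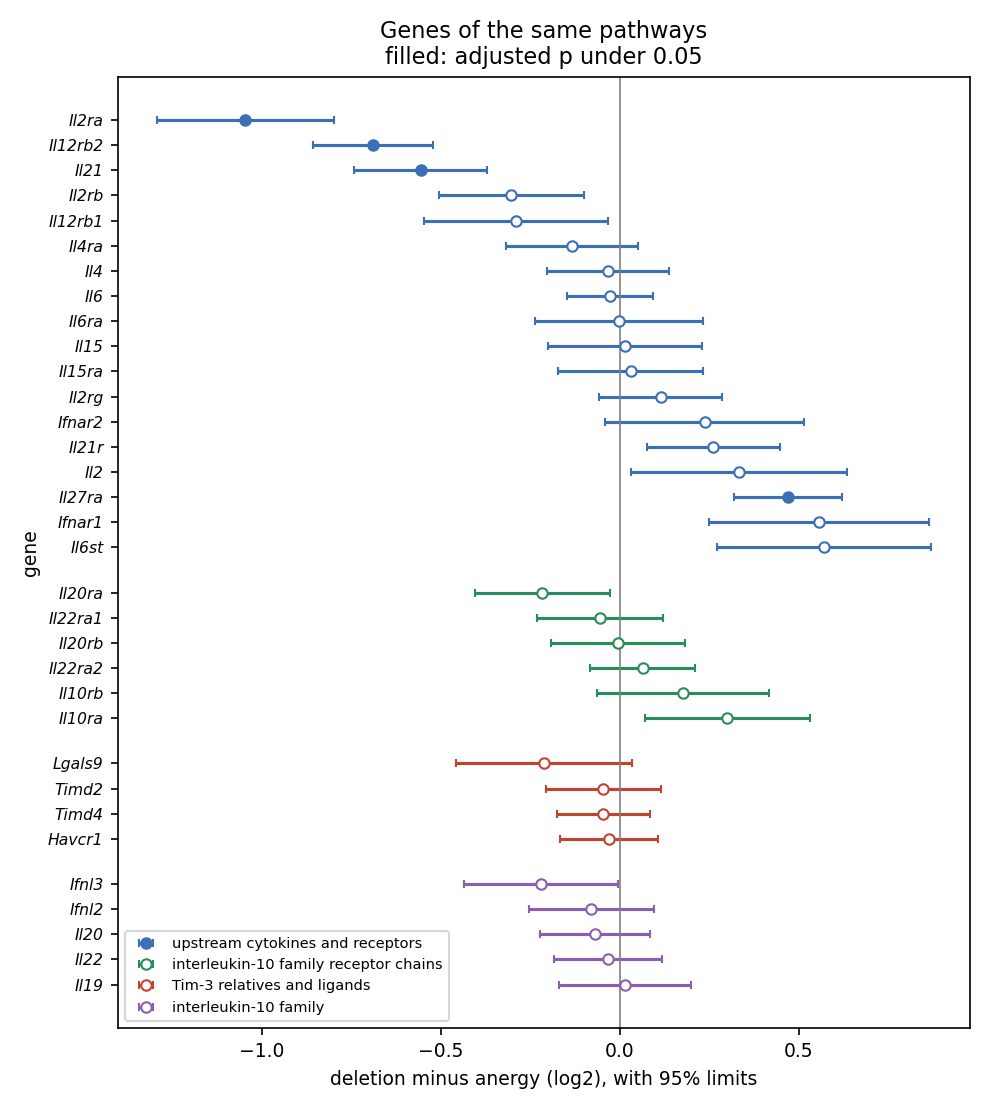
Difference of deletion minus anergy on the log2 scale (horizontal axis) with its 95% limits for single genes (rows) of 4 pathway lists, by colour. Filled points had an adjusted p under 0.05: Il2ra, Il12rb2 and Il21 lie to the left and Il27ra to the right, all in the list upstream of Blimp-1 or interleukin-10.

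Of 19 genes that Blimp-1 is known to repress in lymphocytes, 8 were measured. Between deletion and anergy 1 was lower, Ccr6 (-1.07 ± 0.11, SE, log2), and 0 were higher, with a median of 0.34 against -0.01 over all probe sets. The share of all probe sets called in that comparison was 3.37%. Ccr6 was thus at its highest in the cells with the most Prdm1 transcript. The interleukin-7 receptor gene Il7r fell in both, by 2.25 in deletion and 2.39 in anergy, and the homing receptor gene Ccr7 by 0.99 in deletion and 1.40 in anergy. Ifng, the interferon-gamma gene, and Cd22 rose in both.

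The effector list had no call between deletion and anergy among 7 measured of 14 genes, where 3.37% of all probe sets were called. With the replicate block the chemokine gene Ccl4 passed as higher in deletion (0.86; adjusted p = 0.0344). Without the block it passed only with deletion replicate 1 left out (1.15; adjusted p = 0.0156), and without deletion replicate 3 the difference was 0.55 (0.134). Against naive cells 6 of the 7 rose in deletion, against 19% of all probe sets called, and 5 rose and 1 fell in anergy, against 26.8%. The fall was that of Ccl5, a call made in 9 of 18 settings and lost without deletion replicate 1, any 1 of the anergy arrays, or naive replicate 1 or 2. One of the rises in deletion was that of Il2, a dim probe set at 2.86 ± 0.26 in deletion and 2.35 ± 0.18 in naive cells (SD, n = 3 each), a call made in 11 of 17 settings and lost without deletion replicate 2 or 3 or naive replicate 2 or 3. Xcl1, Ccl3, Ccl4 and Ifng thus rose in deletion cells, by 5.79, 4.27, 4.14 and 4.38 on the log2 scale, while Prdm1, Havcr2 and Il10 did not pass there.

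Prdm1, Havcr2 and Il10 are also expressed by other cells, among them B cells, plasma cells, macrophages and dendritic cells. None of 6 measured markers of B and plasma cells, 15 of macrophages and dendritic cells, 2 of natural killer cells and 4 of erythroid cells and granulocytes passed between deletion and anergy in limma. In that comparison 3.37% of all probe sets were called. Among the macrophage and dendritic cell markers Cx3cr1 differed by -0.29 (adjusted p = 0.0642). It passed as lower in deletion after quantile normalization (0.0238) and with array weights (0.0403). Clec4n passed as higher in deletion without deletion replicate 1 (0.395; adjusted p = 0.0413). The linear values of the macrophage and dendritic cell markers summed to 246.6 to 283.5 in deletion, 253.0 to 268.2 in anergy and 292.0 to 301.0 in naive arrays, and those of the B and plasma cell markers to 444.0 to 614.7 in deletion, 417.1 to 473.1 in anergy and 649.7 to 722.7 in naive arrays. Neither sum was highest in anergy, but a sum of linear values is set mainly by its brightest markers and need not follow a single one. In anergy against naive cells 26.8% of all probe sets were called. Of the macrophage and dendritic cell markers 1 was higher there, Cx3cr1 (0.44 ± 0.07, SE, log2), and 1 was lower, Ly75 (-0.65 ± 0.10). Of the B and plasma cell markers Cd22 was higher (0.98 ± 0.16) and Cd72 lower (-1.64 ± 0.17). Of the erythroid and granulocyte markers Siglecf was higher there (0.39 ± 0.09, SE, log2), and of the endothelial, stromal and platelet markers Pecam1 was lower (-0.30 ± 0.09), a call made in 8 of 18 settings and lost without deletion replicate 1, anergy replicate 2 or 3, or any 1 of the naive arrays. Of 6 markers of CD4 and regulatory T cells only Il2ra was measured, which activated CD8 T cells express too, and it was 2.07-fold lower in deletion than in anergy. Of 7 measured markers of endothelial, stromal and platelet cells 1, Pecam1, was higher in deletion than in anergy and 0 were lower, and T cells express this gene too. Whether such cells took part in the results was not tested.

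**Figure D5:**
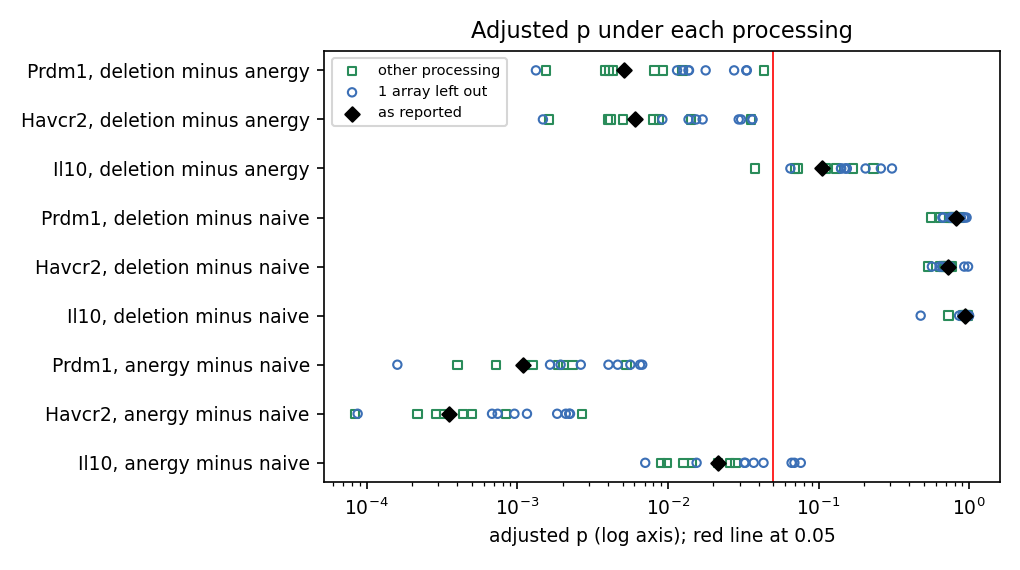
Adjusted p from limma (horizontal log axis) of Prdm1, Havcr2 and Il10 in each comparison (rows), as reported (black diamonds), with 1 array left out (blue circles) and under other processing (green squares). Prdm1 and Havcr2 stay left of 0.05 in both comparisons with anergy, while Il10 crosses it in both.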

How the data were processed

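RNA of 9 samples was measured on single-colour Affymetrix GLYCOv4 arrays of 1246 probe sets. Total RNA was extracted with Trizol, and 0.5 micrograms of it was labelled with biotin, per the labels' protocols. The authors deposited RMA values, per the submitters' processing notes, whose version is not given in the sources used here. That these are log2 values was read from the method and from the range of the deposited table, 1.67 to 13.86. They were used as deposited. Through the RefSeq accession in their ID, 963 probe sets were named as 909 genes with a table of GRCm38.p6, also the source of the coordinates, and 283 stayed unnamed. Where several probe sets matched a gene, the one brightest on average was taken.

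Groups were compared with limma 3.58.1 in R 4.3.3 over all 9 arrays with no block (two-sided, Benjamini-Hochberg over 1246 probe sets, threshold 0.05). The number of arrays limits the precision (median SE 0.087). On simulated data for deletion against anergy, 200 of 1246 probe sets were changed and the noise was drawn independently for each array. Of changes of 0.8, 97.4% were recovered and 4.8% of calls were false. Of changes of 0.5, 87.1% were recovered and 4.57% of calls were false. The data had 42 calls and correlated deviations between arrays, so these shares need not hold for them. The deviations of deletion and anergy arrays of 1 number were correlated (r = 0.195, 0.270 and 0.280). The labels give no pairing, and arrays of unlike number were not compared, so a pairing is not shown. Blocked values stand beside results of deletion against anergy whose call they change. In the other comparisons r was -0.154 to 0.274.

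The members and lists were chosen with earlier results of these data known. By rule the text names every member, all measured genes of the Tim-3, interleukin-10 and suppressive lists, genes of other lists called between deletion and anergy with up to 4 more per list called elsewhere, and the 5 genes most correlated with each member. Others, such as Ifnar1 and cell markers, were named after their values were seen. One result is not reported here. The processing alternatives are given in the closing section.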

Additional observations from a re-analysis of the deposited data

How the results depend on the processing

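Prdm1 and Havcr2 kept their direction and stayed past the threshold in deletion against anergy and in anergy against naive in all 18 fits, with adjusted p of 0.00133 to 0.0434 for Prdm1 and 0.00148 to 0.0364 for Havcr2 between deletion and anergy. With the replicate block the Prdm1 difference between deletion and anergy was -0.80 (adjusted p = 0.0093) and that of Havcr2 -0.763 (0.00872), and the block changed no call of the 3 genes. For Il10 in deletion against anergy the difference was -0.331 after quantile normalization, the 1 of 17 settings that passed (adjusted p = 0.0379); the cause was not tested. With 1 array left out it ran from -0.412 to -0.227. In anergy against naive the Il10 difference ran from 0.297 to 0.392 with 1 array left out, and 3 of these fits, with fewer samples, did not pass: 0.297 without anergy replicate 3, 0.327 without naive replicate 1 and 0.347 without naive replicate 2. In deletion against naive it ran from -0.058 without deletion replicate 1 to 0.127, with -0.003 without naive replicate 1. Il10 lay among the dimmest probe sets, so leaving those out gave no value. Of all probe sets, 42 were called between deletion and anergy, against 70 after quantile normalization, 26 after median centring, 21 in a fit to 2 groups, 75 with array weights, 11 with a change of at least 1, and 20 (without deletion replicate 2) to 44 with 1 array left out. A change of at least 1 left 59 of 237 calls in deletion against naive and 80 of 334 in anergy against naive, and would leave no call of the 3 genes. Single-colour values near the lowest signal limit what can be said of Il10 and Il21.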
